A study of Mus musculus with 24 samples.

Results

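The 10 genes described here encode transporters that carry amino acids across the plasma membrane: *Slc7a1*, *Slc7a2*, *Slc7a5*, *Slc7a11*, *Slc3a2*, *Slc1a4*, *Slc1a5*, *Slc38a2*, *Slc38a4* and *Slc6a9*. They were taken by gene symbol from an expression table of 24532 genes, and all 10 were found in it. The libraries were bulk RNA-seq of the liver, the inguinal white adipose tissue (iWAT), the gastrocnemius muscle (GM) and the hypothalamus, with 3 Ctrl and 3 LKO libraries per tissue and 24 in all. Ctrl mice were *Crif1*flox/flox and LKO mice were Alb-Cre;*Crif1*flox/flox, both on C57BL/6, 8 weeks old and fed chow, so that both genotypes carried the floxed alleles and differed by the Cre transgene. Cre under the albumin promoter acts in hepatocytes, and the libraries were made from whole tissue that also holds other cells. In such bulk samples a change in the number of cells of a type and a change in RNA per cell cannot be told apart. *Crif1* encodes a component of the mitochondrial ribosome, and the comparison of 4 tissues asked which changes accompany its loss from hepatocytes, in the liver itself and elsewhere.

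Amino acids do not cross membranes freely, and each carrier takes a range of them. The heavy chain 4F2hc, encoded by *Slc3a2*, brings light chains of the SLC7 family to the cell surface. Among these, LAT1 (*Slc7a5*) exchanges large neutral amino acids such as leucine, and xCT (*Slc7a11*) takes up cystine in exchange for glutamate, which feeds glutathione synthesis. CAT1 (*Slc7a1*) and CAT2 (*Slc7a2*) carry the cationic amino acids arginine, lysine and ornithine without a heavy chain. ASCT1 (*Slc1a4*) and ASCT2 (*Slc1a5*) exchange small neutral amino acids, serine among them. SNAT2 (*Slc38a2*) and SNAT4 (*Slc38a4*) take up small neutral amino acids together with sodium, and GLYT1 (*Slc6a9*) takes up glycine. Several of these genes are known targets of ATF4, a transcription factor of the integrated stress response that binds C/EBP-ATF composite elements.

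Promoter sequence was looked at for the letters TGATGNAA, the core of such a composite element, where N is any base. RefSeq windows on GRCm38.p6 (mm10), from 250 bases before to 50 bases after the transcript starts listed there, were found for 7 of the 10 genes, with 12 windows in all. *Slc7a2*, *Slc7a5* and *Slc1a5* had no entry. Both strands were searched. The letters occurred in 2 of the 12 windows, those of *Slc7a11* and *Slc1a4*, and in 3.97% of all 32851 promoter windows of the table. The stretches below run 5′ to 3′ on the strand of the gene, from base -100 to base 4 counted from the start. They show the 2 genes with the letters, in capitals, and *Slc3a2*, which had the largest log2 fold change of the transporters tested in the LKO liver.

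Slc7a11, chr3:50443610-50443713, minus strand: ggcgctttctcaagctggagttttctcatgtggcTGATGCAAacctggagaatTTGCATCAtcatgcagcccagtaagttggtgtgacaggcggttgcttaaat
Slc1a4, chr11:20332710-20332813, minus strand: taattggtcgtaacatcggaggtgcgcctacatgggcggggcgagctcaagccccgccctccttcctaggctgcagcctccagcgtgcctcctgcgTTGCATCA
Slc3a2, chr19:8713894-8713997, minus strand: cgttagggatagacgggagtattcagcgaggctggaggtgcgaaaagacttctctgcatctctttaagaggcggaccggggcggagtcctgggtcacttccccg

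*Slc7a11* held the letters at base -66 on its own strand and at base -47 on the opposite strand, and the pair did not overlap. In *Slc1a4* they lay on the opposite strand, from base -4 to base 4, across the start. The single *Slc3a2* window held none, which says only that these letters are not in that window. Its start lies 9472 bases inside the annotated gene, and the outer end of *Slc3a2* was not searched. A match is a description of the sequence and not a bound site. On mm10 the whole genes lie at chr3:50364936-50443613 (*Slc7a11*), chr11:20302180-20332713 (*Slc1a4*) and chr19:8706882-8723369 (*Slc3a2*), and *Slc1a5* lies at chr7:16781346-16798274 on the plus strand. Of the 10 genes *Slc6a9* alone overlaps another annotated gene.

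The libraries held between 4.45 and 8.09 gigabases mapped (median 5.2), as the ratio of deposited coverage to FPKM gives it. *Gadd45gip1*, the current symbol of *Crif1*, was at 14.6, 12.5 and 13.6 FPKM (fragments mapped to a gene, scaled to transcript length and library depth) in the Ctrl livers and at 5.4, 2.0 and 2.51 FPKM in the LKO livers. It fell by 1.84 on the log2 scale in the liver (SE 0.27, limma adjusted p = 0.00357). No call was made for it in iWAT, GM or hypothalamus, where the adjusted p lay between 0.446 and 0.999. LKO liver 1 kept the most *Gadd45gip1*, and it was also the LKO liver with the lowest summed level of 23 integrated stress response genes. Marker genes of hepatocytes, adipocytes, skeletal muscle and hypothalamus were each highest in the tissue they mark.

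In the Ctrl tissues each transporter had its own distribution. 6 of the 10 genes had their highest mean in the hypothalamus, 2 in iWAT (*Slc3a2* and *Slc1a5*) and 2 in the liver (*Slc7a2* and *Slc38a4*). Of 30 pairs of neighbouring tissues in the order of the means, 20 differed at a limma adjusted p under 0.05, and of such neighbouring pairs over all genes tested 66.8% did so. FPKM is per kilobase, so that levels can be set side by side between genes.

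The heavy chain *Slc3a2* was at 57.1 ± 12.7 FPKM in iWAT, 51.4 ± 12.7 in hypothalamus, 14.5 ± 0.579 in liver and 11.3 ± 1.07 in GM (mean ± SD, n = 3 Ctrl libraries here and below). The first pair did not differ beyond the spread of the libraries (adjusted p = 0.46) and changed places with TPM, and liver and GM did not either (adjusted p = 0.129), whereas hypothalamus lay above liver (adjusted p = 2.7e-06). *Slc7a5* was at 25.8 ± 3.62 FPKM in hypothalamus and near 1 FPKM elsewhere, with 1.18 ± 0.333 in iWAT, 0.999 ± 0.121 in liver and 0.774 ± 0.212 in GM. The light chain of the LAT1 complex was thus 21.9 times as high in hypothalamus as in the next tissue (adjusted p = 1.7e-10), and the 3 lower tissues did not differ from their neighbours beyond the spread (adjusted p = 0.473 and 0.274). *Slc7a11* was at 7.7 ± 0.174 FPKM in hypothalamus and at no more than 0.105 FPKM in any Ctrl library of the other tissues.

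The cationic carriers divided the tissues between them. *Slc7a2* was at 48.1 ± 6.23 FPKM in liver, 7.28 ± 0.661 in GM, 4.2 ± 0.429 in hypothalamus and 0.872 ± 0.195 in iWAT, and each step down was called (adjusted p between 9.7e-10 and 1.4e-04). *Slc7a1* ran in another order, with 8.37 ± 1.27 FPKM in hypothalamus, 1.51 ± 0.277 in iWAT, 0.715 ± 0.221 in GM and 0.108 ± 0.0318 in liver (adjusted p between 3.1e-08 and 0.00156), although its step from iWAT to GM was not called after median-ratio scaling between libraries (adjusted p = 0.167). In the Ctrl liver the level of *Slc7a2* was 391.3 to 565.8 times that of *Slc7a1*, and in the Ctrl hypothalamus it was 0.461 to 0.57 times.

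The ASCT pair was divided as sharply. *Slc1a5* was at 797.4 ± 93.2 FPKM in iWAT, 15.2 ± 5.94 in GM, 2.63 ± 0.957 in hypothalamus and 0.878 ± 0.219 in liver, with each step called (adjusted p between 1.6e-09 and 0.00495). *Slc1a4* was at 33.4 ± 2.11 FPKM in hypothalamus, 2.34 ± 0.555 in liver, 1.7 ± 0.133 in iWAT and 0.406 ± 0.204 in GM. The last step of *Slc1a5*, from hypothalamus to liver, was not called after scaling (adjusted p = 0.158). Liver and iWAT did not differ beyond the spread for *Slc1a4* (adjusted p = 0.0644), but did after scaling (adjusted p = 2.7e-04). The ratio of *Slc1a5* to *Slc1a4* ran from 0.052 to 0.119 in the Ctrl hypothalamus and from 384 to 563.7 in Ctrl iWAT.

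Of the sodium-coupled carriers, *Slc38a4* was at 229.6 ± 26.0 FPKM in liver, 64.6 ± 2.29 in GM, 1.97 ± 0.238 in iWAT and 0.631 ± 0.0863 in hypothalamus, and each step was called (adjusted p between 3.8e-12 and 2.4e-06). *Slc38a2* was the most even of the 10 by the ratio of its highest to its lowest mean, with 44.9 ± 2.31 FPKM in hypothalamus, 38.5 ± 8.66 in liver, 33.0 ± 6.53 in GM and 16.2 ± 1.55 in iWAT. Its first 3 tissues did not differ from their neighbours beyond the spread (adjusted p = 0.18 and 0.268), and after scaling the first step turned, to -0.63 for hypothalamus minus liver on the log2 scale (adjusted p = 0.00615). With TPM the same step was 0.74 (adjusted p = 0.00139) and without Liver Ctrl 2 it was 0.39 (adjusted p = 0.0344), so the order of hypothalamus and liver depended on the scaling. *Slc6a9* was at 49.0 ± 1.39 FPKM in hypothalamus, 10.2 ± 1.9 in liver, 2.39 ± 0.717 in GM and 1.84 ± 0.371 in iWAT, and the last pair did not differ beyond the spread (adjusted p = 0.201), but did after scaling (adjusted p = 0.00184).

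**Figure D1:**
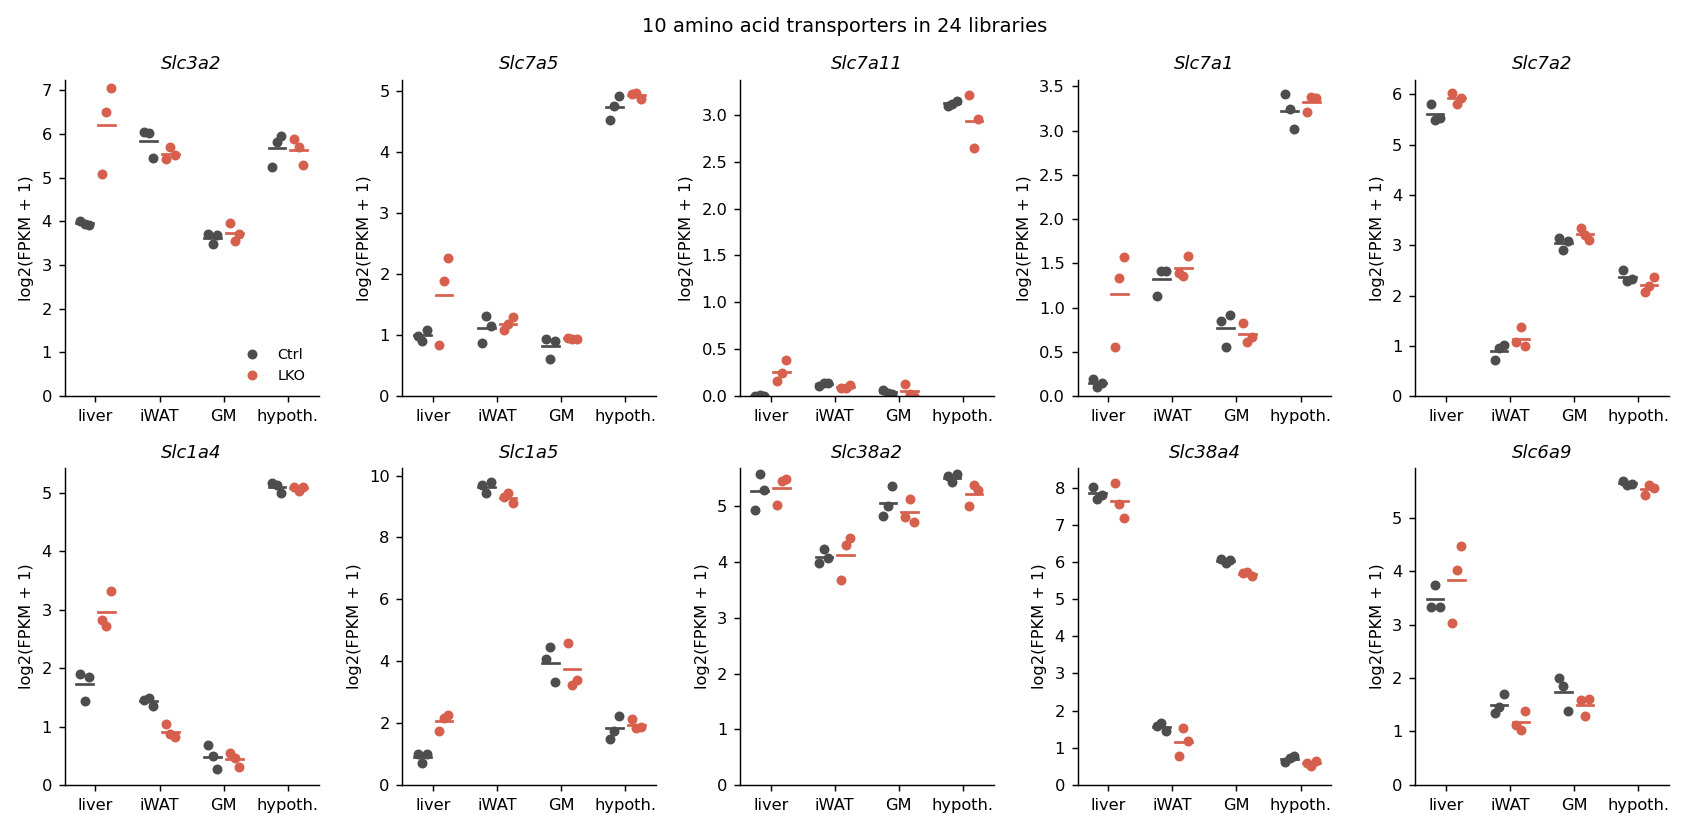
Log2(FPKM + 1) of each of the 10 transporters (y axis, own range per panel) in the 4 tissues (x axis), with 1 point per library, Ctrl in grey and LKO in red, and a bar at the mean of 3 libraries. *Slc3a2*, *Slc7a1*, *Slc7a11*, *Slc1a4* and *Slc1a5* had all 3 LKO livers above all 3 Ctrl livers, and *Slc1a5* in iWAT was the highest value of any panel, at up to 876.6 FPKM.

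In the liver 3 of the 10 transporters were called, and all 3 were higher in LKO mice: *Slc3a2*, *Slc1a4* and *Slc1a5*. A gene was called where it differed at least 1.5-fold on the log2(FPKM + 1) scale with a limma adjusted p under 0.05. The test was open to genes at 1 FPKM or more in at least 3 of the 6 libraries, which 8 of the 10 transporters passed and *Slc7a1* and *Slc7a11* did not. By the same criterion 27.4% of the 10956 genes tested in liver were called, 23.9% as higher in LKO. The median of the 8 log2 fold changes was 0.52, and that of all genes tested was 0.33. Median-ratio scaling between libraries brought the latter to 0.02, and the share of all genes called higher to 10.1%, so scaled values are given beside the main ones. The 3 transporters were called with either scaling, and 17.2% of all genes were called after it. Of the 8 transporters tested, 3 had all LKO livers above all Ctrl livers, where 61.1% of the 10956 genes tested had groups without overlap and 53% had LKO as the higher group. *Slc7a1* and *Slc7a11*, which were not tested, had all LKO livers above all Ctrl livers too.

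The heavy chain *Slc3a2* was at 15.2, 14.3 and 14.1 FPKM in the Ctrl livers and at 32.8, 89.2 and 132.4 FPKM in the LKO livers. The Ctrl values lay close together, and every LKO value lay above them, with LKO 1 the lowest of the 3. The mean rose 5.84-fold, and the log2 fold change was 2.26 (SE 0.44, 95% interval 1.21 to 3.30, adjusted p = 0.00919), or 1.90 after scaling (adjusted p = 0.0135). The call was lost with ordinary variances for each gene (adjusted p = 0.0648).

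Its light chains were much lower in the liver. *Slc7a5* was at 0.991, 0.882 and 1.12 FPKM in Ctrl and at 0.779, 2.7 and 3.82 FPKM in LKO. LKO 1 lay below every Ctrl library and the other 2 LKO libraries lay above, so the groups overlapped and no call was made (log2 fold change 0.67, 95% interval -0.12 to 1.45, adjusted p = 0.133). Without LKO 1 it was called, at 1.08 (adjusted p = 3.7e-04). *Slc7a11* was listed at 0, 0.00542 and 0 FPKM in Ctrl and at 0.121, 0.183 and 0.303 FPKM in LKO. The groups did not overlap, but every liver library was far below the 1 FPKM needed for the test, with a mean of at most 1.42 reads over each base of the transcript, and no fold is given. A fit with no filter on low values put the difference at 0.26 on the log2(FPKM + 1) scale (SE 0.05, adjusted p = 0.0199), below the 1.5-fold criterion.

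Summed over 6 light chains (*Slc7a5*, *Slc7a6*, *Slc7a7*, *Slc7a8*, *Slc7a10* and *Slc7a11*), the level was 3.65, 4.11 and 3.92 FPKM in Ctrl livers and 8.28, 10.6 and 13.6 FPKM in LKO livers. The heavy chain was 3.48 to 4.16 times that sum in Ctrl livers. In LKO livers it was 3.97, 8.4 and 9.75 times that sum. LKO 1 thus lay within the Ctrl range of the ratio and the other 2 lay above it. In the other 3 tissues the heavy chain was below or near the sum of its light chains in both genotypes, with ratios between 0.19 and 1.09. *Slc7a10*, which carries alanine, serine and cysteine, made up most of the sum in iWAT, at 132.3 to 156.8 FPKM in Ctrl.

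**Figure D2:**
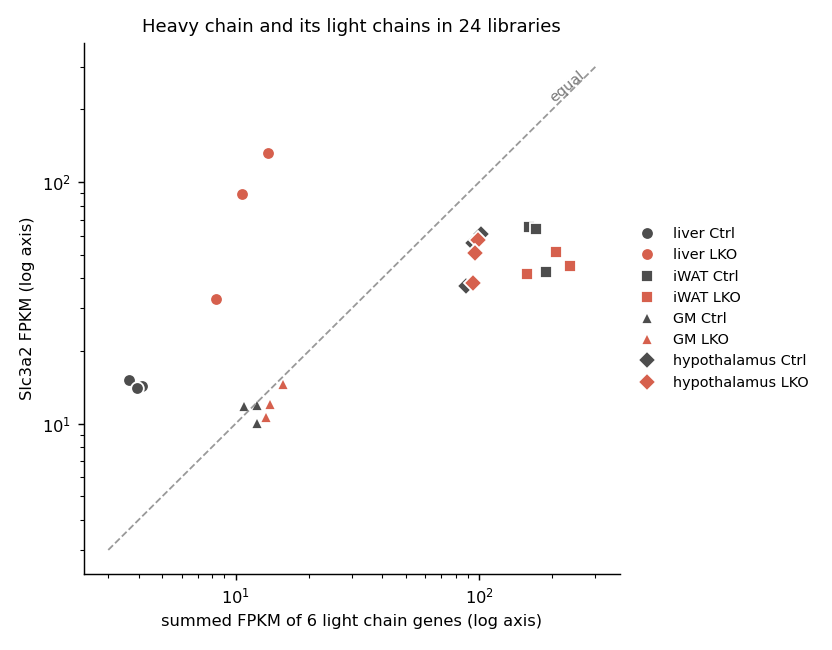
FPKM of the heavy chain *Slc3a2* (y axis, log scale) against the summed FPKM of 6 light chain genes (x axis, log scale), 1 point per library, with shape for tissue, grey for Ctrl, red for LKO and a dashed line where both are equal. All 6 liver libraries lie above the line, and LKO livers 2 and 3 lie farthest from it, at ratios of 8.4 and 9.75.

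The cationic carriers both had a higher mean in LKO livers, by very different amounts. *Slc7a1* was at 0.141, 0.078 and 0.105 FPKM in Ctrl livers and at 0.469, 1.53 and 1.97 FPKM in LKO livers. The groups did not overlap and the ratio of the means was 12.2, yet only LKO 2 and LKO 3 reached 1 FPKM and the gene did not enter the main liver test. With no filter the log2 fold change was 1.01 (SE 0.25, adjusted p = 0.0329), past the criterion, so that 4 of the 10 transporters were called in that fit, as were 15.9% of the 17883 genes in it. *Slc7a2*, the abundant cationic carrier of the liver, was at 55.3, 44.1 and 44.9 FPKM in Ctrl and at 64.0, 54.9 and 59.8 FPKM in LKO. The groups overlapped and no call was made (0.31, 95% interval 0.02 to 0.60, adjusted p = 0.0772), and after scaling the value was -0.05 (adjusted p = 0.814). *Slc7a2* remained 30.4 to 136.4 times as high as *Slc7a1* in LKO livers.

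Both ASCT carriers rose. *Slc1a4* was at 2.71, 1.7 and 2.61 FPKM in Ctrl livers and at 6.05, 5.57 and 9.02 FPKM in LKO livers, with no overlap. Its mean was 2.94 times as high, and the log2 fold change was 1.23 (SE 0.20, 95% interval 0.75 to 1.70, adjusted p = 0.00511), or 0.94 after scaling (adjusted p = 0.0094). *Slc1a5* was at 1.02, 0.626 and 0.991 FPKM in Ctrl livers and at 2.38, 3.51 and 3.82 FPKM in LKO livers, again with no overlap. Its mean was 3.68 times as high, with a log2 fold change of 1.16 (SE 0.17, 95% interval 0.77 to 1.55, adjusted p = 0.00325) and 0.94 after scaling (adjusted p = 0.00371). Of its 6 liver libraries 4 reached 1 FPKM, the 3 LKO libraries among them. Both ASCT calls held without any single liver library (adjusted p of at most 0.0271).

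No call was made for the SNAT carriers or for the glycine carrier. *Slc38a4* was at 258.1, 207.1 and 223.5 FPKM in Ctrl and at 279.4, 186.5 and 145.1 FPKM in LKO, where LKO 1 was the highest library of all and LKO 2 and LKO 3 the lowest (-0.22, 95% interval -0.77 to 0.33, adjusted p = 0.448, and -0.58 after scaling, adjusted p = 0.191). Its value moved with single libraries, to -0.47 without LKO 1 (adjusted p = 0.0189, under the 1.5-fold criterion) and to -0.00 without LKO 3 (adjusted p = 0.994). *Slc38a2* was at 29.8, 47.1 and 38.5 FPKM in Ctrl and at 31.6, 42.8 and 44.1 FPKM in LKO, within the Ctrl range (0.04, 95% interval -0.42 to 0.51, adjusted p = 0.86), with -0.31 after scaling (adjusted p = 0.215). *Slc6a9* was at 9.11, 12.4 and 9.1 FPKM in Ctrl and at 7.16, 15.2 and 21.1 FPKM in LKO. The groups overlapped through LKO 1 alone, which lay below every Ctrl library (0.36, 95% interval -0.44 to 1.17, adjusted p = 0.393, and 0.02 after scaling), and without LKO 1 the gene was called, at 0.77 (adjusted p = 0.00541). *Slc6a9* overlaps *Ccdc24* on the opposite strand, and the library kit does not mark strand, so its reads and those of *Ccdc24* cannot be told apart in the shared stretch.

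**Figure D3:**
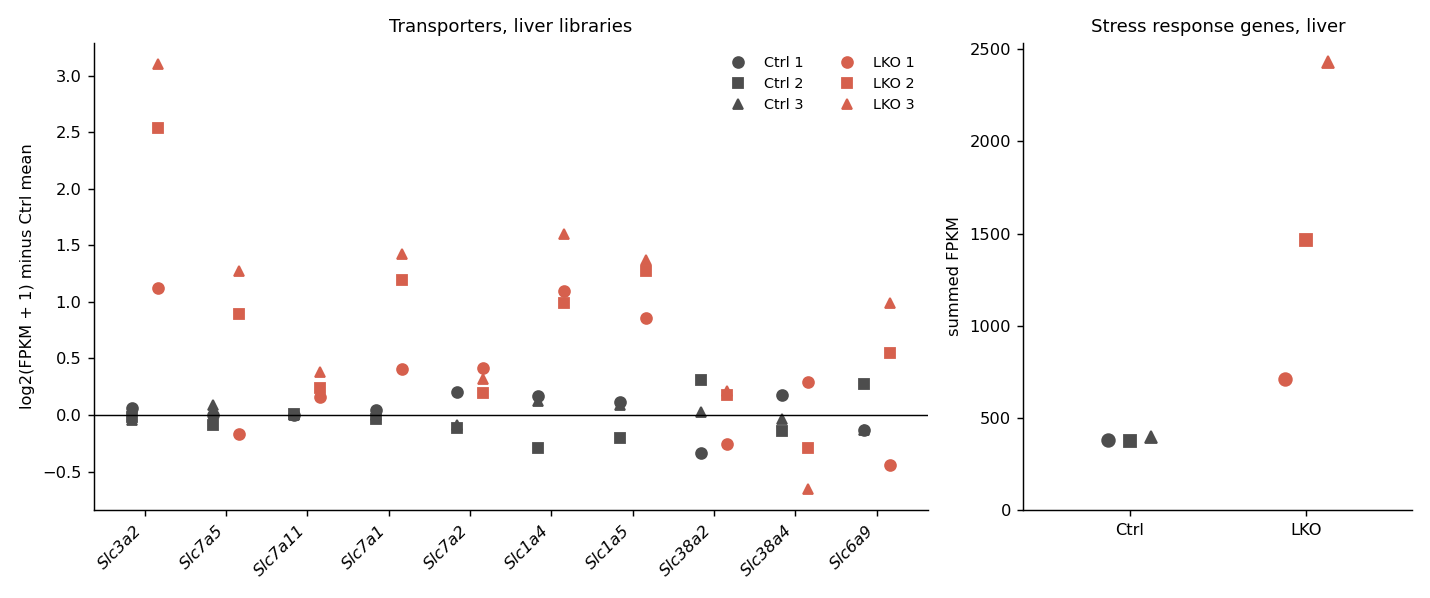
Left, log2(FPKM + 1) of each transporter in the 6 liver libraries minus the mean of the 3 Ctrl libraries (y axis), Ctrl in grey and LKO in red, with circle, square and triangle for libraries 1, 2 and 3 of a genotype. Right, summed FPKM of 23 integrated stress response genes in the same libraries, between 373.1 and 396.7 in Ctrl and at 711.9, 1464 and 2433 in LKO 1, 2 and 3; LKO 1 is the lowest LKO library for *Slc3a2*, *Slc7a5*, *Slc7a11*, *Slc7a1*, *Slc1a5*, *Slc38a2* and *Slc6a9*.

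Marker genes of other cells also differed between Ctrl and LKO livers. The summed level of 5 Kupffer cell markers was 93.4 to 97.5 FPKM in Ctrl and 204.9 to 325.5 FPKM in LKO. For 6 markers of monocytes and recruited macrophages it was 1.03 to 1.26 FPKM in Ctrl and 16.8 to 52.0 FPKM in LKO, and for 5 neutrophil markers 1.0 to 1.58 and 7.63 to 9.69 FPKM. Flow cytometry in the paper pointed to fewer resident Kupffer cells in LKO livers, opposite to the Kupffer cell sum, and to more monocytes and neutrophils. Markers of stellate cells and fibroblasts went from between 8.32 and 11.7 FPKM to between 37.4 and 46.3 FPKM, those of the bile duct from between 30.7 and 31.8 to between 41.6 and 88.9 FPKM, those of endothelium from between 30.2 and 34.4 to between 37.6 and 62.8 FPKM, and those of cycling cells from between 1.21 and 2.37 to between 24.7 and 58.7 FPKM. The lists for T cells (0.705 to 0.768 against 1.17 to 1.61 FPKM), adipocytes (12.9 to 14.4 against 33.4 to 35.6), brown adipocytes (4.48 to 5.11 against 6.07 to 7.43) and mammary epithelium (190.8 to 282.9 against 667.1 to 780.9) were also higher in LKO without overlap, and that for astrocytes was lower (435.7 to 520.2 against 262 to 350). The last sum was nearly all *Aldh1l1* (433.3 to 518.6 against 256.8 to 345.9 FPKM), while *Gfap*, *Aqp4* and *Gja1* were higher in LKO without overlap. *Krt14*, *Krt5* and *Trp63* were under 0.1 FPKM in every liver library, so the mammary epithelium sum was that of *Krt8* and *Krt18*. The adipocyte sum was mostly *Fabp4* and *Cidec*, with *Plin1* and *Lep* under 0.1 FPKM. Hepatocyte markers summed to between 58286 and 61342 FPKM in Ctrl and to between 42004 and 70215 FPKM in LKO. Most of that sum was *Alb*, which overlapped between genotypes, as did *Ttr* and *Fgb*. *Apoa1* (7105 to 7145 against 2942 to 6164 FPKM) and *Serpina1c* (4807 to 4983 against 1573 to 3365) were lower in LKO without overlap. Such sums do not count cells, and the part of these cell types in the transporter values of the LKO liver was not tested.

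In iWAT none of the 9 transporters tested was called by limma, nor was any of the 12288 genes tested (0% called). At an unadjusted p under 0.05 and no limit on the fold there were 2 transporters, *Slc1a4* and *Slc1a5*, and 15% of all genes. With ordinary variances the count of called transporters was also 0. The groups did not overlap for the same 2 transporters, both lower in LKO, where 20.8% of all genes had groups without overlap and 11% had LKO as the lower group. *Slc1a4* was at 1.75, 1.81 and 1.56 FPKM in Ctrl and at 1.07, 0.827 and 0.762 FPKM in LKO (-0.52, 95% interval -0.77 to -0.27, adjusted p = 0.114). Its LKO mean was 0.52 times its Ctrl mean. Of its 6 iWAT libraries 4 reached 1 FPKM, the 3 Ctrl libraries among them, so it passed the level filter through its higher group. *Slc1a5* was at 820.9, 694.6 and 876.6 FPKM in Ctrl and at 632.5, 691.6 and 548.2 FPKM in LKO (-0.35, 95% interval -0.68 to -0.02, adjusted p = 0.307). Ctrl 2 and LKO 2 were nearly level for *Slc1a5*, and the gap between the groups for *Slc1a4* was wider. The summed adipocyte markers were 20903 to 24569 FPKM in Ctrl iWAT and 25729 to 27052 FPKM in LKO iWAT, and endothelial markers 110.2 to 128.6 and 166.4 to 219.4 FPKM. *Lep*, 1 of the adipocyte markers, went the other way (159.2 to 198.2 against 51.7 to 144.9 FPKM). Neutrophil markers (3.69 to 5.07 against 8.58 to 19.5 FPKM), hepatocyte markers (15.9 to 27.3 against 36.9 to 54.7) and astrocyte markers (205.3 to 228.6 against 229.7 to 246.5) were also higher in LKO iWAT without overlap as sums. No single astrocyte gene separated the groups. The sum of 23 integrated stress response genes was lower in LKO iWAT without overlap (964.6 to 1041 against 912.6 to 963.1 FPKM). The part of these cells and genes in the transporter values was not tested.

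The other 7 transporters tested in iWAT had groups that overlapped. *Slc38a4* (-0.41, 95% interval -0.86 to 0.05), *Slc6a9* (-0.32, 95% interval -0.66 to 0.01) and *Slc3a2* (-0.29, 95% interval -0.71 to 0.14) had the lower values, and *Slc7a2* (0.25, 95% interval -0.09 to 0.58), *Slc7a1* (0.12), *Slc7a5* (0.08) and *Slc38a2* (0.04) the higher. Adjusted p ran from 0.351 to 0.957. The cystine carrier *Slc7a11*, at most 0.105 FPKM in any iWAT library, was not tested.

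In GM 6 transporters were tested and none was called (0% of 10877 genes called). 1 transporter, *Slc38a4*, had an unadjusted p under 0.05, as had 6.83% of all genes, and ordinary variances gave 0 called as well. *Slc38a4*, the most abundant of the 10 in GM, was at 66.1, 62.0 and 65.7 FPKM in Ctrl and at 51.2, 51.6 and 48.3 FPKM in LKO. The groups were tight and did not overlap, as for 11.6% of all genes (7.2% with LKO lower), and the log2 fold change was -0.35 (SE 0.06, 95% interval -0.49 to -0.22, adjusted p = 0.359). The summed brown adipocyte markers were lower in LKO GM without overlap (587.8 to 626.8 against 557.7 to 575.1 FPKM). That sum was nearly all *Cox7a1* (580.1 to 618 against 546.4 to 562.4), and *Ucp1*, *Cidea*, *Dio2* and *Ppargc1a* overlapped between genotypes. Summed monocyte and macrophage markers were higher (5.87 to 6.05 against 6.35 to 11.3). The part of these genes and cells was not tested. *Slc1a5* had the largest SE of the transporters tested in GM, with 15.8, 20.8 and 8.93 FPKM in Ctrl and 23.0, 8.45 and 9.4 FPKM in LKO (-0.21, SE 0.41, 95% interval -1.17 to 0.75, adjusted p = 0.965). In the same order of libraries 5 adipocyte markers summed to 461.8, 525.6 and 234.4 FPKM and to 684.8, 259.1 and 296.4 FPKM. The 3 libraries with the highest *Slc1a5* were the 3 with the highest adipocyte markers, and the part of adipocytes in these values was not tested. *Slc7a2*, *Slc3a2*, *Slc38a2* and *Slc6a9* overlapped between genotypes, with log2 fold changes between -0.25 and 0.18, and *Slc7a1*, *Slc7a5*, *Slc7a11* and *Slc1a4* stayed below 1 FPKM in every GM library.

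In the hypothalamus 9 transporters were tested and none was called, while 0.0217% of 13828 genes were. 1 transporter, *Slc38a2*, had an unadjusted p under 0.05, as had 3.72% of all genes, and ordinary variances called 0 transporters too. *Slc38a2* was at 45.7, 42.3 and 46.7 FPKM in Ctrl and at 31.3, 40.7 and 38.3 FPKM in LKO (-0.29, 95% interval -0.53 to -0.05, adjusted p = 0.999). *Slc6a9* was at 50.6, 48.1 and 48.3 FPKM in Ctrl and at 41.7, 47.7 and 46.3 FPKM in LKO (-0.12, 95% interval -0.27 to 0.04, adjusted p = 0.999). These 2 genes had LKO below Ctrl without overlap, and 9.7% of all genes had groups without overlap, 4.97% with LKO lower. For the other 7 tested genes the groups overlapped and log2 fold changes lay between -0.18 for *Slc7a11* and 0.20 for *Slc7a5*. Among these the interval was narrowest for *Slc1a4* (-0.02, 95% interval -0.18 to 0.13), which was at 31.0 to 35.1 FPKM in Ctrl and 31.6 to 33.3 FPKM in LKO. Pituitary markers summed to between 7.09 and 52.8 FPKM in Ctrl and between 129.4 and 588.9 FPKM in LKO. Markers of skeletal muscle (8.7 to 13.3 against 14.8 to 16.1 FPKM) and of the hypothalamus itself (1248 to 1548 against 1572 to 1612) were also higher in LKO without overlap. Lower in LKO without overlap were the lists for endothelium (23.3 to 27.1 against 20.0 to 22.5 FPKM), monocytes and macrophages (24.3 to 30.2 against 20.5 to 23.3), T cells (1.91 to 2.23 against 1.36 to 1.71), bile duct (40.8 to 56.6 against 30.2 to 36.9) and brown adipocytes (19.3 to 21.5 against 18.8 to 19.1). The T cell sum was mostly *Lck* (1.82 to 2.05 against 1.29 to 1.59). The bile duct sum was mostly *Spp1* (30.8 to 48.9 against 22.4 to 26.7), while *Epcam* rose without overlap (0.0887 to 0.793 against 0.857 to 1.21). No single brown adipocyte gene separated the groups. These are sums over genes, and the part of the cells they are named for was not tested. *Slc38a4*, below 1 FPKM in all 6 libraries, was not tested.

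**Figure D4:**
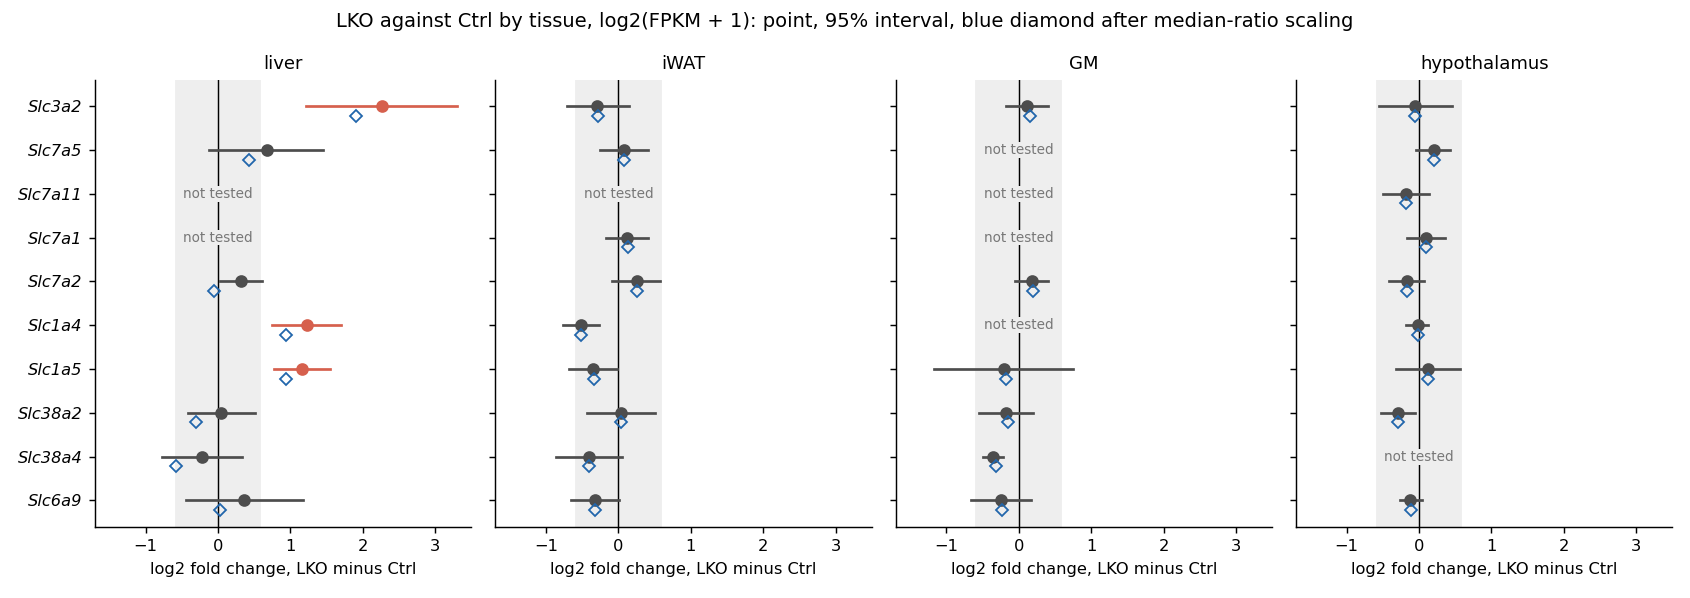
Log2 fold change of LKO against Ctrl on the log2(FPKM + 1) scale (x axis) for the 10 transporters (y axis) in the 4 tissues, with the 95% interval as a bar, called genes in red, the value after median-ratio scaling as a blue diamond and differences under 1.5-fold shaded. Red points appear in the liver panel for *Slc3a2* (2.26), *Slc1a4* (1.23) and *Slc1a5* (1.16), and genes under the level filter are marked as not tested.

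Whether the effect of LKO differed between tissues was tested in 1 fit of the 24 libraries, which took them as independent since the labels do not say which tissues shared a mouse. The interaction was called for 4 of the 10 transporters at an adjusted p under 0.05, and for 33.5% of the 15849 genes tested. The effect on *Slc1a4* was higher in liver than in iWAT by 1.75 (SE 0.20), than in GM by 1.27 (SE 0.20) and than in hypothalamus by 1.25 (SE 0.20) on the log2 scale, and the interaction had an adjusted p of 2.9e-05. For *Slc3a2* these differences were 2.54, 2.13 and 2.31 (SE 0.46 each, interaction adjusted p = 9.9e-04), and for *Slc7a1* 0.89, 1.07 and 0.91 (SE 0.25 each, interaction adjusted p = 0.01). All 3 contrasts passed an adjusted p of 0.05 for each of these 3 genes, as they did singly for 34.7%, 32.8% and 32.1% of all genes. For *Slc1a5* the differences were 1.52, 1.37 and 1.05 (SE 0.41 each), the last with an adjusted p of 0.0595. Its interaction (adjusted p = 0.0266) was lost after median-ratio scaling (0.0513) and without Liver Ctrl 2 (0.0805), Liver Ctrl 3 (0.0524), Liver LKO 2 (0.0721) or Liver LKO 3 (0.0861). With same-numbered libraries of a genotype as a replicate block over the 4 tissues it was 0.0503, and the interaction was called for *Slc1a4* (1.5e-04), *Slc3a2* (0.00391) and *Slc7a1* (0.0152). The other 6 transporters had adjusted p between 0.062 for *Slc7a11* and 0.778 for *Slc38a4*. That of *Slc7a11* passed without Hypo LKO 1 (0.00281) or Hypo LKO 2 (0.041). Without Liver LKO 1 the interaction was called for 7 transporters, and for 45.2% of all genes in place of 33.5%, with *Slc7a5* (6.9e-04), *Slc6a9* (0.00368) and *Slc7a11* (0.0382) added.

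Other plasma membrane amino acid carriers were mostly too low for the test in liver. Of 30 such genes 10 were tested and 3 were called, each higher in LKO. That share was near the 23.9% of all genes called higher, and the median log2 fold change of 0.31 was near the 0.33 of all genes, or -0.04 beside 0.02 after scaling. After scaling the same 3 were called higher, beside 10.1% of all genes. *Slc7a8*, a light chain for neutral amino acids, rose from 1.09 ± 0.0918 to 3.34 ± 0.455 FPKM (1.05, SE 0.12, adjusted p = 0.00151). The light chain *Slc7a7*, which exports cationic amino acids, rose from 1.74 ± 0.317 to 4.54 ± 0.563 FPKM (1.02, SE 0.14, adjusted p = 0.00256). *Slc43a2*, a carrier of large neutral amino acids without a heavy chain, rose from 1.84 ± 0.0265 to 4.73 ± 1.07 FPKM (1.00, SE 0.15, adjusted p = 0.00373). All 3 kept their calls under every alternative run, and no gene of the list was called in the other tissues. Of 6 lysosomal amino acid carriers tested in liver 2 were called higher, the glutamine carrier *Slc38a7* (0.85, adjusted p = 0.0284) and the cystine carrier *Ctns* (0.74, adjusted p = 0.0362), and neither was called after scaling (0.0552 and 0.088). Both calls were also lost with no filter, with ordinary variances and on leaving out any single Ctrl liver or LKO 2, and that of *Ctns* on leaving out LKO 3 (highest adjusted p of 0.101 and 0.12). This count too was near the 23.9% of all genes called higher, with a median of 0.38 beside 0.33.

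The transporters are often described as targets of the integrated stress response, and 23 regulators and targets of it were counted too. In the liver all 23 genes were tested, 16 were called higher and 0 lower, where 23.9% of all genes were called higher, and the median log2 fold change was 1.18 beside 0.33 for all genes. After scaling 13 were called higher, beside 10.1% of all genes, and the median was 0.83 beside 0.02. The largest called changes were those of the stress regulator *Nupr1* (6.85, SE 0.86, adjusted p = 0.00221), the pseudokinase *Trib3* (4.51, SE 0.91, adjusted p = 0.0098), the secreted hormone *Fgf21* (4.28, SE 0.53, adjusted p = 0.00204) and the transcription factor *Atf3* (4.19, SE 0.57, adjusted p = 0.00273). The call of *Trib3* was lost with ordinary variances (adjusted p = 0.0677), and those of the other three held under every alternative run. Among the 11 tested transcription factors with known transporter targets, a list that shares *Atf4*, *Cebpb* and *Ddit3* with the former, 4 were called higher in liver: *Ddit3* (3.05, adjusted p = 0.0189), *Myc* (2.86, adjusted p = 0.0131), *Nfe2l2* (0.90, adjusted p = 0.00829) and *Trp53* (0.80, adjusted p = 0.0272), beside 23.9% of all genes. The median of the 11 factors was 0.56 beside 0.33 for all genes, or 0.18 beside 0.02 after scaling. All 4 calls were lost with ordinary variances (adjusted p of 0.051 to 0.0974), that of *Myc* also without Liver Ctrl 1 or Liver LKO 2, and that of *Ddit3* on leaving out any single Ctrl liver or Liver LKO 2. *Trp53* lost its call when any single liver library other than LKO 1 was left out. After scaling *Ddit3* and *Myc* were still called higher, and *Mycn*, which was under the level filter before scaling and is named after its value was seen, was called lower. *Atf4*, which is in both lists, was not called in liver (0.49, SE 0.23, adjusted p = 0.12, or 0.13 after scaling, adjusted p = 0.576). Its adjusted p ran from 0.00161 to 0.576 over the alternatives. In iWAT, GM and hypothalamus no gene of these lists was called.

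Lists downstream of the carriers were also counted in the liver. In amino acid sensing by mTORC1, 6 of 15 tested genes were called higher, beside 23.9% of all genes, and *Rragd*, *Sesn2* and *Rragc* after scaling too, beside 10.1%. The median log2 fold change of 0.36 was near the 0.33 of all genes, and it was 0.11 beside 0.02 after scaling. The GTPases *Rragd* (2.24, adjusted p = 0.00797) and *Rragc* (0.96, adjusted p = 0.0202) recruit mTORC1 to the lysosome, *Sesn2* (1.12, adjusted p = 0.0274) is a leucine sensor, and *Lars* (0.82, adjusted p = 0.0365) is the leucyl-tRNA synthetase. The 4 calls were lost with ordinary variances (adjusted p of 0.0605 to 0.118). That of *Rragc* was also lost on leaving out any single Ctrl liver or LKO 2, and those of *Sesn2* and *Lars* with no filter and when any single liver library other than LKO 1 was left out. For glutathione synthesis from cystine, 1 of 8 tested genes was called, *Gss*, the glutathione synthetase, which rose from 34.4 ± 1.68 to 84.4 ± 12.9 FPKM (1.26, SE 0.13, adjusted p = 0.00142). This share was below the 27.4% of all genes called, and the median of the list was 0.10 beside 0.33, or -0.26 beside 0.02 after scaling. The call of *Gss* held under every alternative run. No gene of these lists was called in the other 3 tissues.

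The genes most like each transporter over the 24 libraries were sought by the root mean square difference of values centred and divided by the SD of each gene, among 15839 genes. They give a description of patterns that rest largely on the order of tissues. The nearest was *Chrm1* for *Slc7a11* (0.08 SD), *Trim46* for *Slc7a5* (0.09), *Fkbp9* for *Slc1a5* (0.09), *Rangap1* for *Slc1a4* (0.12), *Mark4* for *Slc7a1* (0.13), *0610040J01Rik* for *Slc7a2* (0.14), *Cdk18* for *Slc6a9* (0.15), *Dcaf11* for *Slc38a4* (0.21) and *Ppp4r1* for *Slc3a2* (0.24). For *Slc38a2* the nearest gene, *Hook1*, was at 0.45 SD. In the same order the second nearest were *Rnf138rt1*, *Mapk4*, *Mgl2*, *Cmas*, *Fam120b*, *Tmem56*, *Zswim5*, *Abcb4*, *Cad* and, for *Slc38a2*, *Sorbs2*, at 0.08 to 0.47 SD. *Slc38a2*, with the most even level over tissues, thus had no gene as near to it as the other 9 had.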

How the data were processed

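FPKM per gene were deposited by the authors in 1 joined table, with NCBI Gene identifiers, and were used as the main values. For each library the authors also deposited TPM and the mean read coverage per base (a signal not scaled for depth). Per the labels, total RNA was sequenced as TruSeq libraries, in paired reads of 100 nt. The submitters' processing notes name FastQC 0.11.5, Trimmomatic 0.32, HISAT2 2.0.5, Bowtie2 2.2.6, STAR 2.5.2b and StringTie 1.3.3b with mm10, without their roles. Scaling between libraries beyond depth is not stated, and a count model was not applied since the values are not read counts.

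Here log2(FPKM + 1) was fitted per tissue with limma 3.58.1 (R 4.3.3, trended empirical Bayes), 3 LKO against 3 Ctrl, over genes at 1 FPKM or more in at least 3 of 6 libraries. P-values were adjusted over all of them by Benjamini and Hochberg. Intervals are at 95%. The interaction fit took the 24 libraries and genes at 1 FPKM in at least 3 of them, and the levels between tissues the 12 Ctrl libraries. The scripts were tested on simulated data first. Whether the libraries of a group came from separate mice is not given in the sources used here, so p-values measure the spread between these libraries, which may be technical.

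The transporters and the gene lists were chosen with earlier results of these data known. 1 of the gene lists is not reported here. The 10 transporters were named whatever their values, with at most 4 called genes per list and tissue by size of the change, and 2 most alike genes per transporter. Alternatives were a pseudocount of 0.1, no filter, TPM, median-ratio scaling, ordinary variances, 1 fit of 24 libraries, a replicate block and leaving out each library. A block over tissues was added after seeing the data.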

Additional observations from a re-analysis of the deposited data

Results flagged for a closer look

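For 4 transporters the effect of LKO differed between the 4 tissues by the interaction test in limma, with adjusted p over 15849 genes, of which 33.5% passed. *Slc1a4* had an adjusted p of 2.9e-05, and its log2 fold change was 1.23 in liver, -0.52 in iWAT and -0.02 in hypothalamus. *Slc3a2* had an adjusted p of 9.9e-04, with 2.26 in liver and between -0.29 and 0.12 in the other tissues. *Slc7a1* had an adjusted p of 0.01, with the effect in liver above that in iWAT, GM and hypothalamus by 0.89, 1.07 and 0.91. *Slc1a5* had an adjusted p of 0.0266, with 1.16 in liver and -0.35 in iWAT, where its level was highest in both genotypes. Its adjusted p was 0.0503 with a replicate block across tissues.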

How the results depend on the processing

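Over 98 results and 1780 alternative values, 1685 kept their direction and their side of the threshold, or a count within 1.5 times, 30 gained and 11 lost the threshold, 33 counts or values moved and 21 turned direction. Among the 8 transporters that passed the level filter, the count called in liver was 3 under a pseudocount of 0.1, no filter, TPM, median-ratio scaling and the replicate block, 2 with ordinary variances, 4 with 24 libraries in 1 fit, where *Slc7a5* was added (adjusted p = 0.0201), and 3 to 5 when each library was left out, the 5 without Liver LKO 1, where 4528 of all genes were called in place of 3006. With no filter *Slc7a1* was called as well, 4 of 10. The count was 0 in iWAT, GM and hypothalamus under every one of these. The count of transporters with an interaction was 3 to 7 when each library was left out. For *Slc7a11* the interaction passed with a pseudocount of 0.1 (6.4e-04) and with TPM (0.0131).

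Direction turned after median-ratio scaling for *Slc7a2* (-0.05) and *Slc38a2* (-0.31) in liver, and between Ctrl tissues for *Slc7a5* in iWAT minus liver (-0.29) and *Slc38a2* in hypothalamus minus liver (-0.63); with TPM it turned for *Slc3a2* in Ctrl iWAT minus hypothalamus (-0.13). It also turned when 1 library was left out, each time without a call: *Slc38a2* in liver (-0.12 to 0.20) and iWAT (-0.11 to 0.26), *Slc7a5* in iWAT (-0.04 to 0.18), *Slc1a5* in GM (-0.63 to 0.05) and hypothalamus (-0.05 to 0.32), *Slc7a1* (-0.00 to 0.20), *Slc3a2* (-0.27 to 0.11) and *Slc1a4* (-0.08 to 0.01) in hypothalamus, and *Slc3a2* in Ctrl iWAT minus hypothalamus (-0.06 to 0.35). The cause was not tested.

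Over all genes the liver count of 3006 was 4822 with TPM, 1882 after median-ratio scaling, 1499 with ordinary variances and 1837 to 4528 with each library left out (4528 without LKO 1). With 24 libraries in 1 fit, iWAT had 304 genes called, GM 18 and hypothalamus 8. The hypothalamus count of 3 was 0 with no filter, with ordinary variances and under the replicate block, 1 with TPM and 0 to 9 with a library left out. The iWAT count was 0 to 128 and the GM count 0 to 14 in the latter. Of 30 neighbouring Ctrl tissues, 19 to 22 differed with a library left out.

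Replicate numbers were not taken to pair the libraries. The correlation of same-numbered Ctrl and LKO deviations within a tissue ran from -0.135 to 0.354, and 7 of 12 libraries matched their own number best. Between tissues of 1 genotype it ran from -0.117 to 0.278, with 22 of 36 best matches. In 4 of these 12 pairs of groups all 3 libraries matched best, and in 1 (GM LKO and hypothalamus LKO) every correlation was over 0.1. A replicate block across tissues, chosen after seeing the data, gave an interaction for 3 transporters in place of 4, without *Slc1a5* (0.0503). With the other replicate blocks, within a tissue and over the Ctrl tissues, no call of a transporter changed, and *Slc3a2* in liver had an adjusted p of 0.00799. Depth limits *Slc7a1* and *Slc7a11* in liver, where coverage per base was at most 1.13 in Ctrl.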
